A study of Rattus norvegicus with 6 samples.

Results

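AP-1 is a family of transcription factors of the basic leucine zipper (bZIP) class, and 10 of its genes were examined in rat myocardium after ischemia and reperfusion. They are Fos, Fosb, Fosl1 and Fosl2 of the Fos family, Jun, Junb and Jund of the Jun family, and the related genes Atf3, Maff and Batf. Members were taken by gene symbol from the deposited expression table, where all 10 were found among 28293 genes. In the MI/RI group (myocardial ischemia/reperfusion injury), the left anterior descending coronary artery of male rats was tied for 30 min and released, with 6 h of reperfusion before the hearts were taken. The sham group had a sham operation, and the sample titles give it the same 30 min and 6 h. Both groups held 3 rats of the genotype WT, and the strain, the age and the region of the heart taken for RNA are not given in the sources used here. The methods describe an injection of vehicle (PBS) for sham and reperfused rats of the study, without stating whether the sequenced rats received it. Stranded libraries were made from total RNA, and expression was deposited as FPKM, fragments scaled by gene length and by library size, so that levels of different genes can be compared per length. Values of single rats are given below in the order of their replicate numbers.

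AP-1 proteins bind DNA as dimers. Fos proteins need a Jun partner, whereas Jun proteins also pair with each other, and the dimers recognise a short palindrome known as the TPA response element (TRE) or, with one more base in the middle, the cyclic AMP response element (CRE). Fos, Fosb, Jun, Junb and Atf3 are immediate early genes, transcribed within minutes of stress, growth factors or stretch through MAP kinases and pre-existing factors such as SRF and CREB. In the heart they are known as early responders to ischemia and haemodynamic load.

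A CRE was found in the promoters of 2 of the 7 members searched, Jund and Maff. Promoters of 7 members (Fosb, Fosl1, Fosl2, Junb, Jund, Maff and Batf) were matched by symbol in the RefSeq promoter table of build GRCr8, which covers 250 bases before and 50 bases after each gene start. Fos, Jun and Atf3 had no entry there and were not searched. Both strands were searched for the CRE, TGACGTCA, for the TRE, TGACTCA, and for the CArG box to which SRF binds. No TRE and no CArG box was found in these 7 windows. Among all 33469 promoters of the same length, 1.83% held a CRE, 4.63% a TRE and 1.64% a CArG box. A match of letters is a description and does not show that a factor binds there. The 66 bases around each CRE are printed 5′ to 3′ on the strand of the gene, with the CRE in capitals, because these were the members in which the searched motifs occurred. The stretch of Jund lies at chr16:18769956-18770021 on the minus strand, with the CRE 221 to 214 bases before the gene start. The stretch of Maff lies at chr7:112792707-112792772 on the plus strand, with the CRE 51 to 44 bases before the start.
Jund: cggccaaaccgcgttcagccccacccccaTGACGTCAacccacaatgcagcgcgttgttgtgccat
Maff: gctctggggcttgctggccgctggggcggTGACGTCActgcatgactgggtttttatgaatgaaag

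The libraries differed between the groups in ways that touch every gene. The 13 mRNAs encoded by mitochondrial DNA took 80.1% to 86.2% of the summed FPKM in sham rats and 61.8% to 71.5% in MI/RI rats. Of 6 cardiomyocyte markers 5 were called higher and 0 lower, and their summed FPKM ran from 3086 to 9779 in sham rats, highest in sham replicate 1, and from 17912 to 23421 in MI/RI rats, with none of the 6 at 0. Of 8 neutrophil and monocyte markers tested 5 were called higher and 1 lower, none was at 0, and the whole list summed to 21.7 to 31.7 FPKM in sham rats and to 58.2 to 126 FPKM in MI/RI rats. Fibroblast markers summed to 420 to 581 FPKM in sham rats and 605 to 669 FPKM in MI/RI rats, with 2 of 7 called higher, and 0 of 7 endothelial markers were called, at 188 to 242 and 185 to 218 FPKM. The parts of these differences in the results below were not tested, and in tissue RNA fewer cells of a type cannot be told apart from less RNA per cell. Relative to sham replicate 1, depth was 1.18 and 1.14 in the other sham libraries and 0.873, 0.935 and 0.881 in MI/RI replicates 1 to 3. Within a gene the FPKM moved between samples in whole steps of 1 fragment, so fragment numbers could be recovered and are given for members with low values. Log2(FPKM + 0.1) was compared with limma in the 10942 genes with a mean of at least 0.5 FPKM. Benjamini-Hochberg adjustment was made over all of them, and genes with an adjusted p under 0.05 were called. Of all genes tested, 25.5% were called higher and 7.36% lower, the shares beside which the marker counts above stand. Among the neutrophil and monocyte markers, Retnlg (called higher) and Csf3r (not called) passed the filter of 0.5 FPKM only through their MI/RI rats. Ccr2 (called lower) passed it only through its sham rats. SE is the standard error of the log2 fold change.

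Transcripts of the AP-1 family were more abundant after reperfusion. The change was led by Fos and Atf3, at means of 0.520 and 1.51 FPKM in sham hearts. Fos (log2 fold change 4.74) and Atf3 (4.63) ranked 10th and 11th of the 10942 genes by log2 fold change, followed among the members by Fosb, Fosl2, Maff and Fosl1. Jund, already the most abundant member with values above 0 in sham hearts, rose less, and Jun was not called. Of the 10 members, 8 passed the filter, 7 were called higher and 0 lower, where 25.5% of all genes tested were called higher, 7.36% lower and 32.9% in either direction. Fosl1, at a mean of 0.336 FPKM in sham rats, passed the filter of 0.5 FPKM only through its MI/RI rats. Without a filter 7 members were called higher too, Fosl1 among them (limma adjusted p = 0.020). In the same 7 members every MI/RI rat lay above every sham rat, which held for 37.2% of all genes tested. The median log2 fold change was 2.49 over the 8 members and 0.29 over all genes tested. The exact permutation test of a single gene cannot give a two-sided p under 0.1 with 3 rats against 3. It gave 0.1 for each of the 7 called members and 0.2 for Jun and for Batf.

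**Figure D1:**
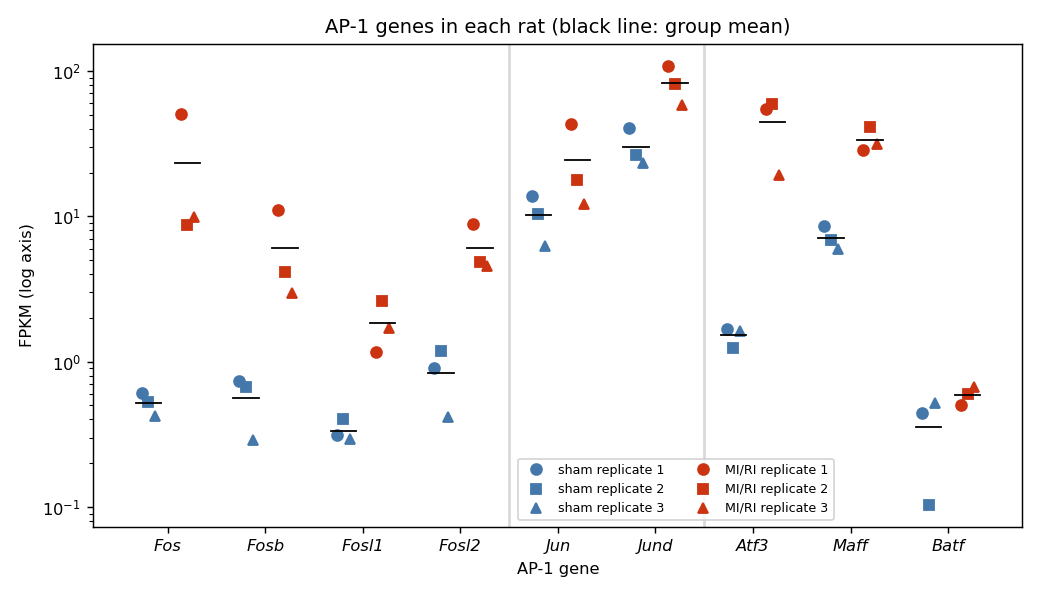
FPKM on a log axis of the 9 AP-1 genes with values above 0 in each of 3 sham rats (blue) and 3 MI/RI rats (red), with symbols for replicates 1 to 3 and black lines at the group means. The groups are separate in 7 genes and overlap in Jun and Batf, and Fos in MI/RI replicate 1, at 50.7 FPKM, stands well above the other MI/RI rats.

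Fos (ENSRNOG00000008015) encodes c-Fos, the founding partner of Jun in AP-1. Sham rats had 0.611, 0.530 and 0.420 FPKM, and MI/RI rats had 50.7, 8.74 and 9.81 FPKM. In fragments this was 41, 42 and 32 against 2966, 548 and 580. The groups did not overlap, and the level in MI/RI replicate 1 was 5.80 times that of the lowest MI/RI rat. A ratio larger than this within the MI/RI group was seen in 0.959% of 9076 genes, named or not, with a mean of at least 1 FPKM and no MI/RI rat at 0, whose median ratio was 1.48. The group means, 0.520 ± 0.0959 and 23.1 ± 23.9 FPKM (SD, n = 3 each), differed 44.3-fold, and the log2 fold change of 4.74 had an SE of 0.56 (limma adjusted p = 0.0014). Leaving out MI/RI replicate 1 gave 3.93 (limma adjusted p = 0.000222).

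Fosb (ENSRNOG00000046667) encodes another Fos protein that, like c-Fos, carries an activation domain. The sham group read 0.741, 0.665 and 0.290 FPKM and the MI/RI group 11.0, 4.14 and 2.96 FPKM, from 52 to 124 and from 412 to 1517 fragments. MI/RI replicate 1 was again the highest rat, and sham replicate 3 was the lowest. Means of 0.565 ± 0.241 and 6.04 ± 4.34 FPKM (SD, n = 3 each) gave a 10.7-fold ratio, and the log2 fold change was 3.06 (SE 0.47, limma adjusted p = 0.0033).

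Fosl1 (ENSRNOG00000020552) and Fosl2 (ENSRNOG00000068412) encode the Fos-related antigens, which lack the strong activation domain of c-Fos and are known to be induced later and for longer. Fosl2 was 0.898, 1.19 and 0.415 FPKM in the sham rats and 8.81, 4.85 and 4.56 FPKM in the MI/RI rats. Fosl1 had the lowest group means of the Fos family, with 0.313, 0.401 and 0.293 FPKM in sham hearts (47, 71 and 50 fragments) and 1.17, 2.61 and 1.72 FPKM in MI/RI hearts (153, 367 and 227 fragments). For both genes the groups were separate, but the order of the MI/RI rats differed, with replicate 1 highest in Fosl2 and lowest in Fosl1. Fosl2 rose 7.28-fold in its means and by 2.76 on the log2 scale (SE 0.38, limma adjusted p = 0.0026). Fosl1 rose 5.46-fold in its means and by 2.09 (SE 0.34, limma adjusted p = 0.0037), on a scale where the pseudocount of 0.1 understates the change of such a low gene.

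Among the Jun genes, Jund (ENSRNOG00000019568), whose protein is present in resting cells, was in every rat the most abundant of the members with values above 0. It stood at 40.2, 26.3 and 23.4 FPKM in sham hearts and at 108, 80.6 and 58.4 FPKM in MI/RI hearts. The groups did not overlap. Replicate 1 led both groups, as for Fos, Fosb and Jun. Sham replicate 1, the sham rat with the highest cardiomyocyte marker sum, was also the highest sham rat for Atf3 and Maff. The part of that sum in these levels was not tested. Jund rose 2.75-fold in its means and by 1.45 on the log2 scale (SE 0.30, limma adjusted p = 0.0079). This call was lost with quantile normalization (0.49, limma adjusted p = 0.11) and when each library was rescaled without its mitochondrial mRNAs (0.67, limma adjusted p = 0.053).

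Jun (ENSRNOG00000026293) encodes c-Jun, the target of the JNK kinases. Its levels were 13.7, 10.4 and 6.26 FPKM without and 42.8, 17.9 and 12.1 FPKM with the injury. MI/RI replicate 3 lay below sham replicate 1, so the groups overlapped, although the group means of 10.1 ± 3.73 and 24.3 ± 16.3 FPKM (SD, n = 3 each) differed 2.40-fold. On the log2 scale the difference of 1.12 did not pass the threshold (SE 0.45, limma adjusted p = 0.082). It passed with a replicate block that paired rats by replicate number (limma adjusted p = 0.0049), a pairing that the design does not give. Leaving out MI/RI replicate 1 gave 0.61, and leaving out MI/RI replicate 3 gave 1.51 (limma adjusted p = 0.030). At 1355 to 2613 fragments in sham rats and 2028 to 7120 in MI/RI rats, counting error was small beside the differences between rats.

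Junb (ENSRNOG00000067725) was listed at 0 in all 6 rats, as was the ERK kinase gene Mapk3. No level, fold change or test can be given for it, and the Jun family below means Jun and Jund.

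Atf3 (ENSRNOG00000003745) encodes a stress-induced bZIP protein that pairs with Jun proteins and represses transcription as a homodimer. Levels were 1.68, 1.25 and 1.62 FPKM in sham rats, from 118 to 147 fragments, and 54.4, 59.5 and 19.1 FPKM in MI/RI rats, from 1347 to 4447 fragments. The sham rats were alike, the lowest MI/RI rat lay far above all of them, and MI/RI replicate 3 was lower than the other MI/RI rats. Means of 1.51 ± 0.231 and 44.3 ± 22.0 FPKM (SD, n = 3 each) gave a ratio of 29.3, and the log2 fold change of 4.63 had an SE of 0.40 (limma adjusted p = 0.00032), the smallest adjusted p of the members.

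Maff (ENSRNOG00000012886) encodes a small Maf protein, which binds DNA but has no activation domain of its own. Expression was 8.56, 6.89 and 5.93 FPKM in the sham rats and 28.4, 40.9 and 31.4 FPKM in the MI/RI rats. It was the least variable of the 8 members tested after reperfusion, with a highest MI/RI rat 1.44 times the lowest, and MI/RI replicate 1 was here the lowest. The ratio of the means was 4.71, and the log2 fold change was 2.22 (SE 0.24, limma adjusted p = 0.0011).

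Batf (ENSRNOG00000008588), known for its role in lymphocytes, was in the MI/RI group the lowest of the members with values above 0. It was 0.440, 0.104 and 0.517 FPKM in the sham rats and 0.504, 0.601 and 0.666 FPKM in the MI/RI rats, and the groups overlapped. These values rest on 18, 5 and 24 fragments in the sham rats and 18, 23 and 24 in the MI/RI rats, and a count of 5 has an exact Poisson 95% interval of 1.62 to 11.7, which covers counting error only. The interval of sham replicate 3, 15.4 to 35.7, lies above it, so these 2 sham rats differed by more than counting error. The mean of Batf, 0.472 FPKM, fell under the filter, and no fold change is given for it. Of 4 lymphocyte markers tested 0 were called higher and 1 lower, beside 25.5% higher and 7.36% lower among all genes tested. The whole list summed to 9.14 to 13.9 FPKM in sham rats and 7.98 to 12.1 FPKM in MI/RI rats.

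**Figure D2:**
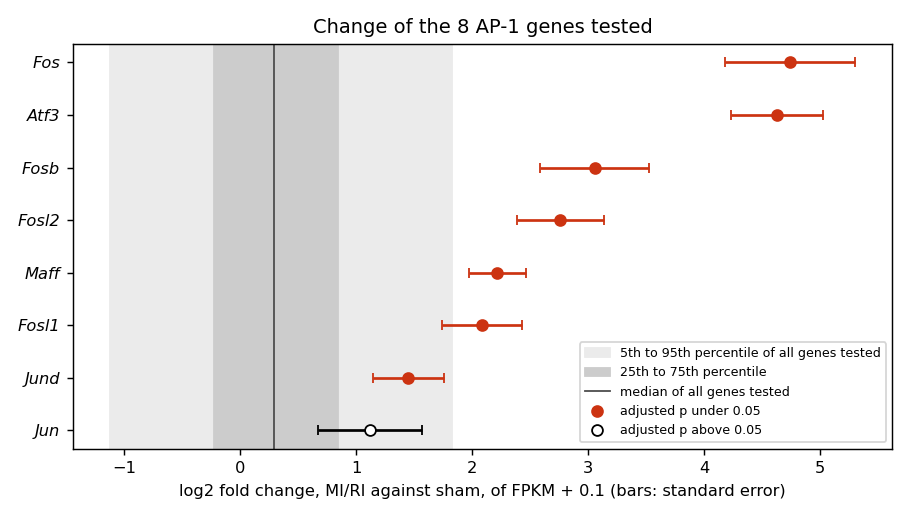
Log2 fold change (MI/RI against sham, of FPKM + 0.1) with its standard error for the 8 AP-1 genes tested, over grey bands that hold the 5th to 95th and the 25th to 75th percentiles of all 10942 genes. Fos, Atf3, Fosb, Fosl2, Maff and Fosl1 lie above the upper end of the wider band at 1.83, and Jund and Jun lie within it.

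Direction and calls were compared under 5 scalings, since FPKM are shares of a library. All 8 members tested kept a log2 fold change above 0 under each of them, and Fos, Fosb, Fosl1, Fosl2, Atf3 and Maff were called each time. The scaling that lowered most members furthest was the one over genes other than the mitochondrial mRNAs, where the median of all genes was −0.46. There, Fos changed by 4.02, Atf3 by 3.87, Fosb by 2.35, Fosl2 by 2.03, Maff by 1.44 and Fosl1 by 1.42 on the log2 scale. Jun then changed by 0.34 (limma adjusted p = 0.47).

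**Figure D3:**
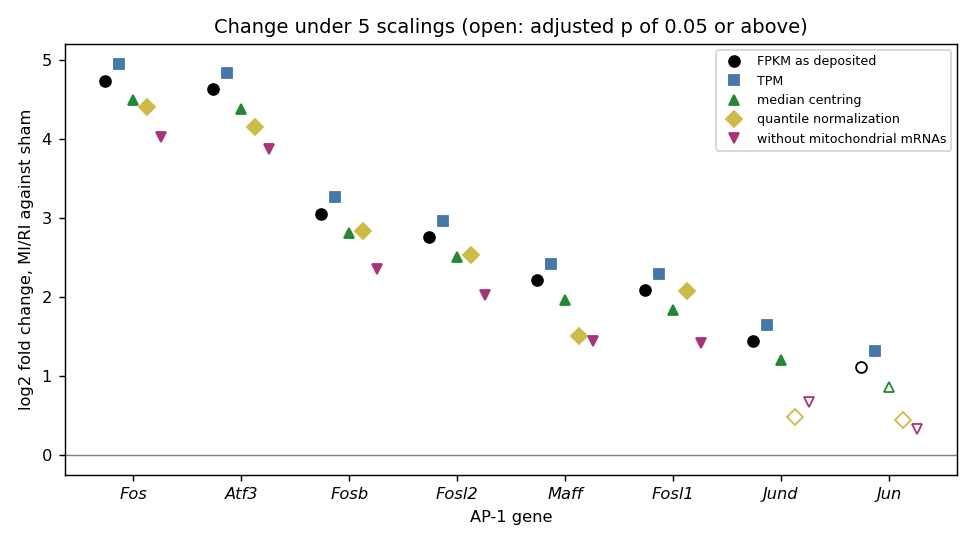
Log2 fold change (MI/RI against sham) of the 8 AP-1 genes tested under 5 scalings of the samples, with open symbols where the adjusted p was 0.05 or above. All symbols lie above 0, and the open ones belong to Jund and Jun.

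The make-up of the AP-1 transcripts within a rat does not move with the scale of its library. In the Fos and Jun families together, the Fos family made up 4.54%, 7.05% and 4.57% of the FPKM in sham hearts and 32.2%, 17.1% and 21.3% in MI/RI hearts. These shares did not overlap, and the mean was higher by 18.1 percentage points in the MI/RI group (13.8 without MI/RI replicate 1). Within the Fos family, Fos itself held 23.8%, 19.0% and 29.6% in the sham rats and 70.7%, 42.9% and 51.5% in the MI/RI rats. Fosl2 was the largest part of the Fos family in sham replicates 1 and 2, whereas Fos was the largest in every MI/RI rat. Within the Jun family the share of Jund overlapped between the groups, at 75.04% ± 3.61 and 78.8% ± 6.20 (SD, n = 3 each). Over all members but Junb, which has no level here, Jund held 58.2% ± 2.70 of the FPKM in sham and 37.9% ± 3.23 in MI/RI hearts. Atf3 held 3.08% ± 0.915 and 19.5% ± 6.89 (SD, n = 3 each). No test was made on shares, since they are sums over chosen members.

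The order of the mean levels changed with them. In sham hearts it ran from Jund (30.0 FPKM) through Jun (10.1), Maff (7.13), Atf3 (1.51), Fosl2 (0.835), Fosb (0.565), Fos (0.520) and Batf (0.353) to Fosl1 (0.336). Neighbours from Jun to Maff and from Fosl2 to Fosl1 overlapped in their ranges over rats. In MI/RI hearts it ran from Jund (82.4 FPKM) through Atf3 (44.3), Maff (33.6), Jun (24.3), Fos (23.1), Fosl2 (6.07) and Fosb (6.04) to Fosl1 (1.83) and Batf (0.590). Each pair of neighbours from Jund to Fosb overlapped there, whereas Fosl1 lay below Fosb, and Batf below Fosl1, in every rat.

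**Figure D4:**
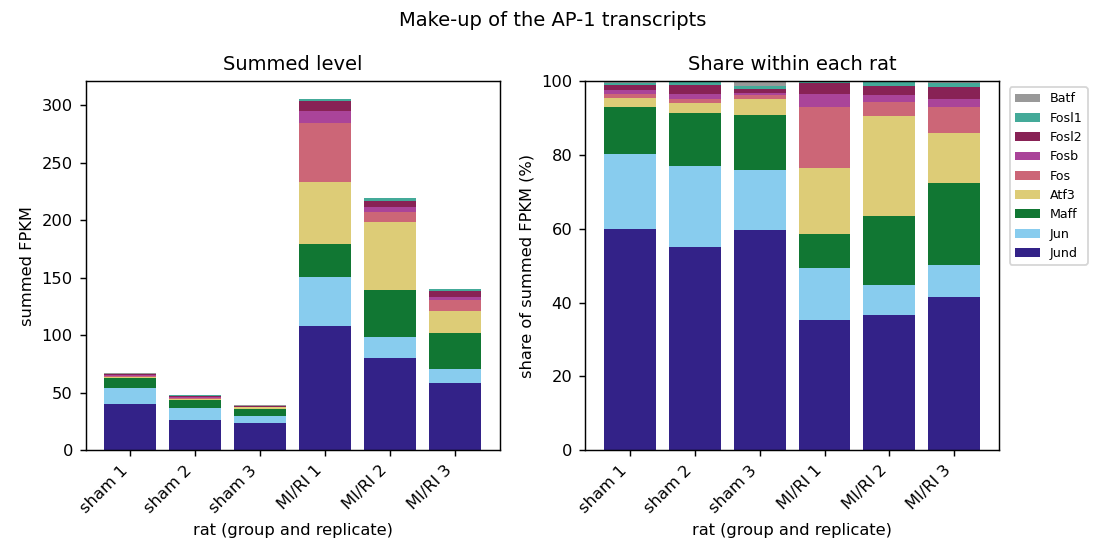
Summed FPKM of the AP-1 genes other than Junb in each rat (left, stacked bars) and the share of each gene in that sum (right, percent). The sum is 39.1 to 67.1 FPKM in sham rats and 141 to 306 FPKM in MI/RI rats, and the part held by Atf3 and by Fos is wider in each MI/RI rat.

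The MI/RI rats were not ranked alike by all members. Of the 7 members called higher, 4 (Fos, Fosb, Fosl2 and Jund) were highest in MI/RI replicate 1 and 3 (Atf3, Maff and Fosl1) in MI/RI replicate 2, where 75.3% of all genes called higher had their highest value in MI/RI replicate 1. MI/RI replicate 1 also had the lowest share of mitochondrial mRNAs, 61.8%, and the part of this in the order was not tested.

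Genes with a profile most like that of a member were sought among 8575 genes with a symbol, outside the members, and with a mean of at least 1 FPKM, by Pearson correlation of log2 values over the 6 rats. The genes nearest to Fos were Mrps33 (r = 0.999), Czib (r = 0.999) and Tmbim4 (r = 0.998). Mrps33 was 12.4 to 13.3 FPKM in sham rats and 27.9, 20.4 and 20.3 FPKM in the MI/RI rats, so that MI/RI replicate 1 stood above the others as in Fos, over a far smaller range. Nearest to Atf3 were Mphosph6 (r = 0.997), Rheb (r = 0.995) and Rala (r = 0.993). The 6 points of each correlation share their libraries and scale, and the difference between the groups sets much of their spread.

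Other bZIP genes can pair with AP-1 proteins or compete for their sites. Of 15 such genes, 13 were in the table and 10 were tested, of which 4 rose and 0 fell, beside 25.5% higher and 7.36% lower among all genes. Their median log2 fold change of 0.34 was close to that of all genes tested, 0.29. The largest change was that of Creb5, a CREB relative that binds the CRE, at 1.93 (SE 0.52, limma adjusted p = 0.020). Creb5 was 0.141, 0.343 and 0.0743 FPKM in sham hearts and 1.13, 1.38 and 0.460 FPKM in MI/RI hearts. It passed the filter on mean FPKM only through the MI/RI hearts. It was followed by Nfe2, the myeloid and erythroid partner of small Maf proteins, at 1.38 (limma adjusted p = 0.032), and by Jdp2, a repressor that dimerises with Jun, at 1.11 (limma adjusted p = 0.014). Nfe2l1, a stress factor that also pairs with small Maf proteins, changed by 0.87 (limma adjusted p = 0.048). Bach1, a repressor with the same partners, was nearest to 0 at 0.21, and its sign turned after median centring (−0.041) and after rescaling over non-mitochondrial genes (−0.51). After that rescaling 0 of these genes were called higher and 3 lower, and without sham replicate 3 none were called in either direction.

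Of 18 genes of the kinases and the SRF complex upstream of AP-1, 15 were tested, 3 rose and 1 fell, where 25.5% of all genes tested were called higher and 7.36% lower. The median log2 fold change of the list was 0.25, near the 0.29 of all genes. Srf, which binds the CArG box of immediate early genes, was 2.22, 2.66 and 2.09 FPKM in sham hearts and 12.0, 11.9 and 7.27 FPKM in MI/RI hearts. It rose by 2.08 (SE 0.26, limma adjusted p = 0.0017) and stayed called under the 5 scalings. The ERK pathway kinase genes Map2k2 and Map2k1 rose by 1.40 (limma adjusted p = 0.0096) and 0.94 (limma adjusted p = 0.023). Map3k5, the stress kinase ASK that acts upstream of JNK and p38, fell by 0.90 on the log2 scale (limma adjusted p = 0.015), and was called lower under all 5 scalings but not without sham replicate 2. The number called higher in this list was 6 with TPM and 1 after rescaling over non-mitochondrial genes, where 3 were lower. Elk4, a cofactor of SRF, was nearest to 0 at −0.02, and turned to 0.17 with TPM.

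Genes known in textbooks as AP-1 targets were mostly higher after reperfusion. Of 19 listed, 12 were tested, 8 rose and 0 fell, against shares of 25.5% and 7.36% over all genes. The median log2 fold change was 1.75 in this list and 0.29 over all genes. The list was chosen with earlier results of these data known, so neither its count nor its median is an independent test. Ccl2, a monocyte chemokine, was 0.755, 0.742 and 3.54 FPKM in sham rats and 34.9, 81.5 and 95.9 FPKM in MI/RI rats (log2 fold change 5.56, limma adjusted p = 0.00072). MI/RI replicate 1 was the lowest MI/RI rat for Ccl2 but not for every target called higher, and no link to Fos was tested. Hmox1, which degrades heme, changed by 2.38 (limma adjusted p = 0.0016) and Timp1, an inhibitor of matrix metalloproteinases, by 1.97 (limma adjusted p = 0.0033). Il6, an inflammatory cytokine gene that was called higher, passed the filter only through its MI/RI rats. It had 3, 0 and 0 fragments in sham rats and 462, 592 and 784 in MI/RI rats. Per unit of depth this is a ratio of 756, with a 95% counting interval of 258 to 3668 (exact binomial). Mmp14, a membrane-bound matrix protease, was nearest to 0 at 0.04, and was below 0 after median centring, quantile normalization and rescaling over non-mitochondrial genes. Many of these targets are also driven by other factors. Of 8 neutrophil and monocyte markers tested, 5 were called higher and 1, Ccr2, lower, and their part was not tested.

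**Figure D5:**
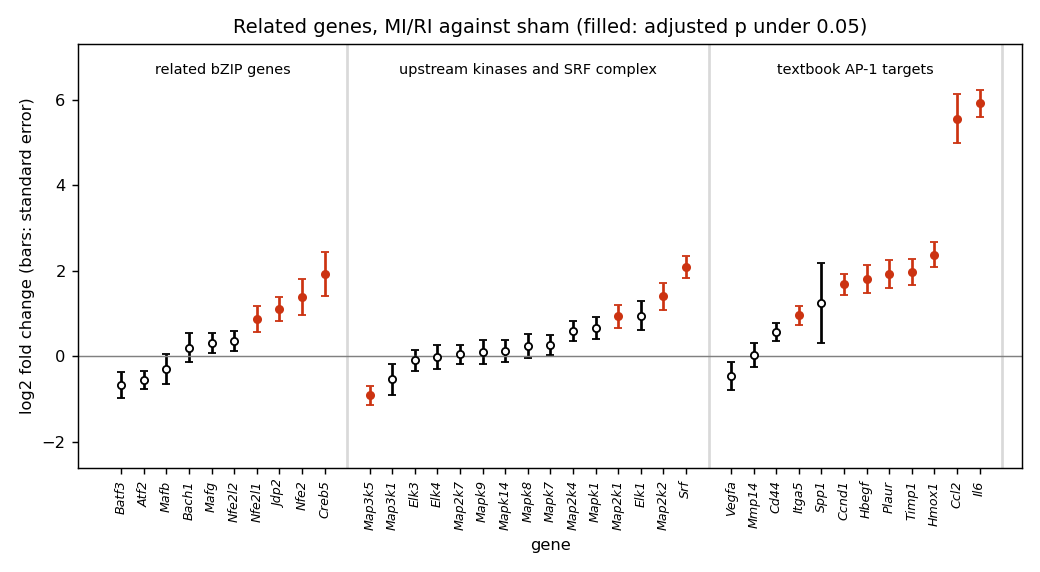
Log2 fold change (MI/RI against sham) with its standard error of the tested genes of the related bZIP, upstream and target lists, filled where the adjusted p was under 0.05. Filled symbols above 0 number 4 of 10, 3 of 15 and 8 of 12, and Map3k5 is the filled symbol below 0, while the fitted value of Il6, near 0 in sham rats, depends on the pseudocount.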

How the data were processed

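Total RNA of myocardium from 3 sham and 3 MI/RI rats was sequenced, and expression was deposited as FPKM in 1 table, scaled by the authors for gene length and library size. The submitters' processing notes name STAR and HTSeq without versions. The genome build, the annotation and the total used for scaling are not given in the sources used here. Columns were matched to samples by name and rows of 1 symbol were summed. Both groups were fitted in limma 3.58.1 (under R 4.3.3, with variance moderated along a mean trend) on log2(FPKM + 0.1), keeping the 10942 genes whose mean reached 0.5 FPKM. P-values were Benjamini-Hochberg adjusted over all genes tested, and the fit was checked on simulated data. P-values measure the spread between rats as sampled.

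Fragment numbers were recovered as the smallest whole numbers in the ratio of depth-corrected FPKM (tolerance 0.003), which were found for 10449 of 10451 rows above 0 in every sample with a mean under 5 FPKM. They were used to show depth, not for tests.

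The replicate numbers come from the sample titles. Deviations of same-numbered rats from their group means correlated at 0.203, 0.117 and 0.118 over genes, and those of sham replicate 3 and MI/RI replicate 2 at 0.120. The other pairs of unlike number ran from −0.185 to −0.019. A fit pairing rats by number was therefore made as an alternative, on a weak hint from the data and not from the design. The reported fit has no block.

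The members and the related lists were chosen with earlier results of these data known. Named genes are all members and, from each related list, the 4 called genes with the largest absolute log2 fold change and the tested gene nearest to 0. A gene of the target list is not reported here and was left out of the list. Profiles like that of a member were sought for Fos, Junb and Atf3, and Junb, at 0, has none. Alternatives were other pseudocounts and filters, TPM, median centring, quantile normalization, rescaling over non-mitochondrial genes, no trend, the block, the highest row of each symbol, and leaving out each rat.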

Additional observations from a re-analysis of the deposited data

How the results depend on the processing

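The count of 7 members called higher was 6 to 8 in the alternatives, except with a filter at 5 FPKM, where 5 members were tested and 4 called. None of the 8 members tested changed direction under these alternatives, while Batf and Junb have no fold change here. Jun passed the threshold after rescaling to TPM (log2 fold change 1.31, adjusted p = 0.0499, limma), with the replicate block (1.12, adjusted p = 0.0049, limma) and without MI/RI replicate 3, its range with each rat left out being 0.61 to 1.51. Jund lost its call after quantile normalization (0.49) and after rescaling over non-mitochondrial genes (0.67). The replicate block changed no other call of a member. A pseudocount of 1 gave 3.53 for Fos, 2.01 for Fosb, 1.05 for Fosl1, 1.92 for Fosl2 and 4.02 for Atf3, all still called. Of all genes, 2790 were called higher and 805 lower. These counts were 1441 and 1559 after quantile normalization, 793 and 2857 after rescaling over non-mitochondrial genes, 1528 to 2557 and 309 to 881 with each rat left out, and 3085 and 895 with the replicate block. The count of lower genes was 504 with TPM, 1554 after median centring and 166 with a filter at 5 FPKM. Of the calls, 77.6% were higher as reported, 87.3% with TPM, 91.9% with a filter at 5 FPKM, 56.5% after median centring, 48.0% after quantile normalization and 21.7% after rescaling over non-mitochondrial genes, where the medians of all genes were 0.29, 0.48, 0.66, 0.04, −0.02 and −0.46. The cause of these differences was not tested. Depth limits Batf.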
